A study of Homo sapiens with 51 samples.

Results

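Human embryonic stem cells that had received Activin A and BMP4 together for 6 h were compared with the same cells after 1 h, using the 3 libraries of each time, which are 6 of the 51 RNA-seq libraries of the series. The libraries were chosen by their labels. Cells of H1, an established line derived from a human embryo, were followed for up to 96 h in Activin A with BMP4 or in BMP4 alone, and the title of the series asks how both signals direct cells to endoderm. The series holds 17 groups of 3 libraries: 8 times in each condition and untreated cells. The 6 h and 1 h groups received Activin A at 100 ng/mL and BMP4 at 10 ng/mL. They are set beside cells in BMP4 alone at 50 ng/mL for 6 h and 1 h, so the conditions differ in the BMP4 dose as well as in Activin A. All of these treated cells were in TeSR E5 medium with insulin at 3.2 µM, FGF2 at 20 ng/mL and 1 µM of a compound that the labels spell LY29004. The untreated cells, taken as 0 h, were in mTeSR on Matrigel, so the medium differs along with the signals. No group received the differentiation medium without Activin A or BMP4. H1 is 1 line, and the labels do not name separate cultures behind the 3 libraries, so a p-value here reflects library-to-library spread, which may be technical.

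Activin A and BMP4 are secreted ligands of the TGF-beta superfamily. Activin and the related NODAL act through type I and type II receptor kinases that phosphorylate SMAD2 and SMAD3, and BMP4 acts through others that phosphorylate SMAD1, SMAD5 and SMAD9. The phosphorylated proteins join SMAD4 and act in the nucleus with partners such as FOXH1. Both pathways switch on their own inhibitors, among them LEFTY1, LEFTY2, SMAD6, SMAD7 and BAMBI. In the embryo BMP4 acts upstream of WNT3 and NODAL where the primitive streak forms.

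Each library of these 2 groups held between 23440096 and 29260296 counts. Levels are given as CPM, the count of a gene relative to the scaled total of its library, and since CPM does not account for gene length, levels are not compared between genes. The cells carried the markers of pluripotent cells: POU5F1, the core pluripotency factor OCT4, averaged 1606 ± 30.4 CPM at 6 h and 1541 ± 20.5 CPM at 1 h (SD, n = 3 each). SOX2, its partner factor, averaged 237 ± 15.8 CPM at 6 h and 248 ± 3.71 CPM at 1 h. Of 10 fibroblast and matrix markers, the summed level was 512 to 554 CPM at 6 h and 510.0 to 554 CPM at 1 h. At each time 5 of the 10 had at least 10 CPM, and THY1 averaged 218 CPM over both times. DCN and LUM had 0 counts at 1 h but not at 6 h. For 14 endothelial and blood markers the sum was 65.4 to 76.0 CPM at 6 h and 74.3 to 75.1 CPM at 1 h, with HBZ, an embryonic globin, at 0 counts at both times. The 13 protein-coding mitochondrial genes took 2.201% ± 0.029 of counts at 6 h and 2.403% ± 0.327 at 1 h (SD, n = 3 each; exact two-sided permutation p = 0.4, the smallest possible being 0.1), and the highest library was 1 h replicate 1 at 2.778%.

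Over the 19603 genes with enough counts to test, 1001 were called (5.11%), 585 higher and 416 lower at 6 h than at 1 h. A gene was called when its Benjamini-Hochberg adjusted p from edgeR's quasi-likelihood test was under 0.05 and it differed at least 2-fold. These shares, 2.98% higher and 2.12% lower of all genes tested, are the background for the gene groups below. The gene lists were drawn up with earlier results of these data known, so their counts are descriptions. Without the 2-fold limit 3721 genes rose (19.0%) and 3544 fell (18.1%), so many changes were small. These 2 shares are the background for the counts at any fold below. In bulk RNA more cells of a type and more RNA per cell cannot be told apart. Set against untreated cells, 1115 genes were called at 6 h (5.69%) and 170 at 1 h (0.867%), comparisons that share these libraries. Of the called genes, 470 of the 585 higher and 255 of the 416 lower were protein coding, against 15393 of the 19603 tested. First by the rule for named genes came SAMD11, which encodes a protein with a sterile alpha motif: it had 18.3, 14.2 and 13.7 CPM in the 6 h libraries, against 0.174, 0.246 and 0.602 CPM in the 1 h libraries (log2 fold change 5.43 ± 0.20, SE; edgeR quasi-likelihood adjusted p = 6.03e-24). COCH, the gene of the secreted protein cochlin, shares 27.2% of its exon bases with a gene on the other strand and had 277, 228 and 218 CPM at 6 h, against 39.3, 36.5 and 37.3 CPM at 1 h (log2 fold change 2.68 ± 0.08; edgeR adjusted p = 3.5e-26).

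**Figure D1:**
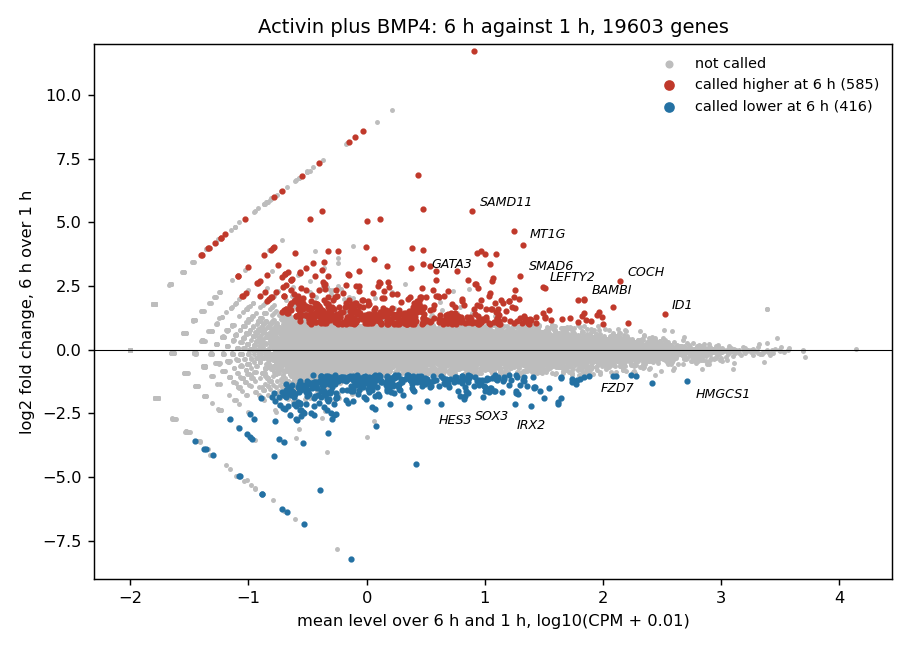
Log2 fold change of 19603 genes, 6 h over 1 h in Activin plus BMP4, against their mean level in log10(CPM + 0.01), 1 point per gene. Red points are the 585 genes called higher, blue points the 416 called lower and grey points the rest; GATA3, SMAD6 and MT1G stand among the higher genes, and SOX3, IRX2 and HMGCS1 among the lower. The fans of points at the left are genes with few or no counts at 1 of the times.

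Most of the listed targets of BMP signalling rose. Of 18 tested genes on a list of BMP targets, 12 were called higher and 0 lower, with a median log2 fold change of 1.39, against 2.98% called higher and a median of 0.00 over all genes tested. GATA3, a transcription factor of the amnion and trophoblast lineages, had 23.5, 17.2 and 15.5 CPM at 6 h, against 1.57, 1.19 and 1.39 CPM at 1 h (log2 fold change 3.76 ± 0.21; edgeR adjusted p = 2.05e-18). GATA2, its close relative, had 17.8, 12.8 and 11.6 CPM at 6 h, against 4.62, 3.56 and 4.55 CPM at 1 h (log2 fold change 1.73 ± 0.17; edgeR adjusted p = 4.87e-11). The 2 times did not overlap for either gene. Targets that feed back on the pathway rose as well. SMAD6, which blocks BMP receptor signalling (chr15:66702228-66782848, GRCh38), had 42.2, 30.3 and 31.7 CPM at 6 h, against 4.22, 4.46 and 5.12 CPM at 1 h (log2 fold change 2.91 ± 0.12; edgeR adjusted p = 9.17e-23). BAMBI, a decoy receptor, had 126, 106 and 98.1 CPM at 6 h, against 28.9, 27.6 and 28.5 CPM at 1 h (log2 fold change 1.96 ± 0.09; edgeR adjusted p = 1.06e-21). SMAD9, which carries the BMP signal itself in muted form, had 12.1, 10.3 and 8.62 CPM at 6 h, against 1.31, 0.942 and 1.35 CPM at 1 h (log2 fold change 3.10 ± 0.16). Each of the 3 had every 6 h library above every 1 h library.

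The ID genes encode inhibitors of basic helix-loop-helix transcription factors and are classic early BMP targets. ID1 had 538, 474 and 439.6 CPM at 6 h, against 196, 175 and 179 CPM at 1 h and 82.3 CPM on average in untreated cells (6 h against 1 h, log2 fold change 1.40 ± 0.08; edgeR adjusted p = 1.16e-18). ID4 had 52.02, 45.9 and 40.04 CPM at 6 h, against 19.4, 17.6 and 20.1 CPM at 1 h (log2 fold change 1.27 ± 0.09). ID2 rose by less than 2-fold, to 69.9, 56.5 and 53.5 CPM at 6 h, against 35.4, 29.9 and 34.6 CPM at 1 h (log2 fold change 0.85 ± 0.08; edgeR adjusted p = 1.48e-11). So ID1 was already above its untreated level at 1 h, whereas SMAD6 at 1 h averaged 4.60 CPM, close to its 4.03 CPM in untreated cells. The remaining called members were ID3, MSX2, TFAP2A, HEY1 and NOG. MSX2, a homeobox gene, averaged 6.67 ± 1.36 CPM at 6 h and 0.977 ± 0.231 CPM at 1 h, and TFAP2A, an early surface-ectoderm and amnion factor, 4.26 ± 0.987 CPM at 6 h and 0.459 ± 0.0705 CPM at 1 h. HEY1, a Notch and BMP target, averaged 18.1 ± 3.37 CPM at 6 h and 3.86 ± 0.308 CPM at 1 h. MSX1, TBX3 and DLX5, which also mark BMP-treated cells, stayed below 1 CPM at both times. In all 12 called members 6 h replicate 1 held the highest of the 3 levels, 1.18 to 1.45 times the mean of the other libraries. The part of that library in the result was not tested beyond leaving it out: without it ID3 lost its call (log2 fold change 0.93), and 11 members stayed called. Of 14 tested BMP ligands and secreted antagonists, 4 were called higher (among them BMP7, NOG and GREM1) and 1 lower (GDF6, -1.87 on the log2 scale at under 1 CPM), with a median log2 fold change of -0.01. GREM1, the antagonist gremlin, had 21.99, 16.6 and 16.4 CPM at 6 h, against 6.66, 6.92 and 6.02 CPM at 1 h (log2 fold change 1.49 ± 0.17; edgeR adjusted p = 2.46e-09).

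Few of the signalling proteins themselves passed 2-fold. Of 25 tested receptors, SMADs and their regulators, 3 were called higher (SMAD3, SMAD6 and SMAD9) and 0 lower, though 17 rose and 1 fell at any fold, with a median log2 fold change of 0.37. SMAD3, which carries the Activin signal, had 34.2, 29.3 and 28.7 CPM at 6 h, against 14.2, 14.1 and 13.8 CPM at 1 h (log2 fold change 1.13 ± 0.07; edgeR adjusted p = 8.42e-17). BMPR2, a type II BMP receptor, had 59.7, 57.9 and 52.4 CPM at 6 h, against 29.5, 32.9 and 31.4 CPM at 1 h (log2 fold change 0.86 ± 0.09; edgeR adjusted p = 4.14e-10). SMAD2, the other Activin SMAD, moved far less, to 118 ± 3.39 CPM at 6 h, against 98.6 ± 1.46 CPM at 1 h (log2 fold change 0.26 ± 0.05). SMAD4, the shared partner, had a log2 fold change of 0.06 ± 0.04 that did not pass the test (edgeR adjusted p = 0.177).

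The Activin and NODAL branch rose as well, led by its feedback inhibitors. Of 20 tested targets of Activin and NODAL signalling 7 were called higher and 1 lower, 14 rose and 3 fell at any fold, and the median log2 fold change was 0.88. That list was drawn up with earlier results of these data known, so its counts are no independent test of the branch. LEFTY2, a secreted NODAL antagonist, had 51.2, 52.4 and 53.7 CPM at 6 h, against 9.67, 8.84 and 9.78 CPM at 1 h (log2 fold change 2.47 ± 0.14; edgeR adjusted p = 3.98e-18). LEFTY1, its neighbour and relative, had 119, 106 and 102 CPM at 6 h, against 29.6, 27.8 and 25.4 CPM at 1 h and 7.42 CPM on average in untreated cells (6 h against 1 h, log2 fold change 1.99 ± 0.11). CER1, a secreted antagonist of NODAL, BMP and WNT, had 22.7, 23.2 and 19.9 CPM at 6 h, against 5.05, 5.08 and 6.66 CPM at 1 h (log2 fold change 1.96 ± 0.12; edgeR adjusted p = 1.46e-16). The 6 h libraries lay above the 1 h libraries for all 3 genes.

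NODAL itself, the ligand, shares 41.2% of its exon bases with a gene on the other strand and had 36.3, 33.9 and 32.01 CPM at 6 h, against 16.3, 18.1 and 17.1 CPM at 1 h. Its log2 fold change of 0.99 ± 0.12 passed the test (edgeR adjusted p = 3.02e-09) but fell just short of 2-fold, and its call came and went with the setting: it was called without scaling factors (1.02), with no filter (1.00), and without 6 h replicate 3 (1.03) or 1 h replicate 2 (1.02). PMEPA1, an inhibitor of receptor-SMAD signalling, had 67.8, 60.3 and 58.5 CPM at 6 h, against 26.8, 28.5 and 26.8 CPM at 1 h (log2 fold change 1.18 ± 0.08). Every 6 h library of PMEPA1 stood above every 1 h library. FURIN, the protease that cuts NODAL and BMP precursors, had 106, 95.7 and 93.1 CPM at 6 h, against 45.3, 44.8 and 42.7 CPM at 1 h (log2 fold change 1.15 ± 0.05; edgeR adjusted p = 8.75e-21). Of 13 tested ligands of this branch and their antagonists, 4 were called higher and 2 lower, with a median log2 fold change of 0.24. The lower ones were the inhibin subunit genes INHBB and INHBE. INHBB had 0.221, 0.136 and 0.258 CPM at 6 h, against 0.653, 0.573 and 0.828 CPM at 1 h (log2 fold change -1.73 ± 0.51; edgeR adjusted p = 0.00636). INHBE fell to 8.38, 7.22 and 6.08 CPM at 6 h, against 16.6, 15.3 and 15.4 CPM at 1 h (log2 fold change -1.13 ± 0.12). Among the targets the called lower member, GSC, fell at levels below 1 CPM, and leaving out 6 h replicate 2 or 1 h replicate 2 ended its call.

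The window of CER1 is shown because CER1 is a NODAL target with one of the largest differences between conditions, given further on. It holds the 250 bases before the RefSeq start (chr9:14722734-14722983, GRCh38.p14, minus strand, written 5′ to 3′), and capitals mark a match to AATNCACA, a FOXH1 element, searched on both strands.
CER1: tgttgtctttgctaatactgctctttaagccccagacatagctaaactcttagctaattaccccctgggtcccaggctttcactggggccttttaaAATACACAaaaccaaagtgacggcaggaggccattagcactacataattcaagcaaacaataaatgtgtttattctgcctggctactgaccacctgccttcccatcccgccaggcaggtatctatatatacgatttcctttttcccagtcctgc
Of the 20 targets 15 had such a window, and CER1, MIXL1 and PMEPA1 held a match: 3 of 33 windows (9.09%), against 2.89% of the 35116 windows of all genes. A match is a string of letters and not a measured binding site.

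**Figure D2:**
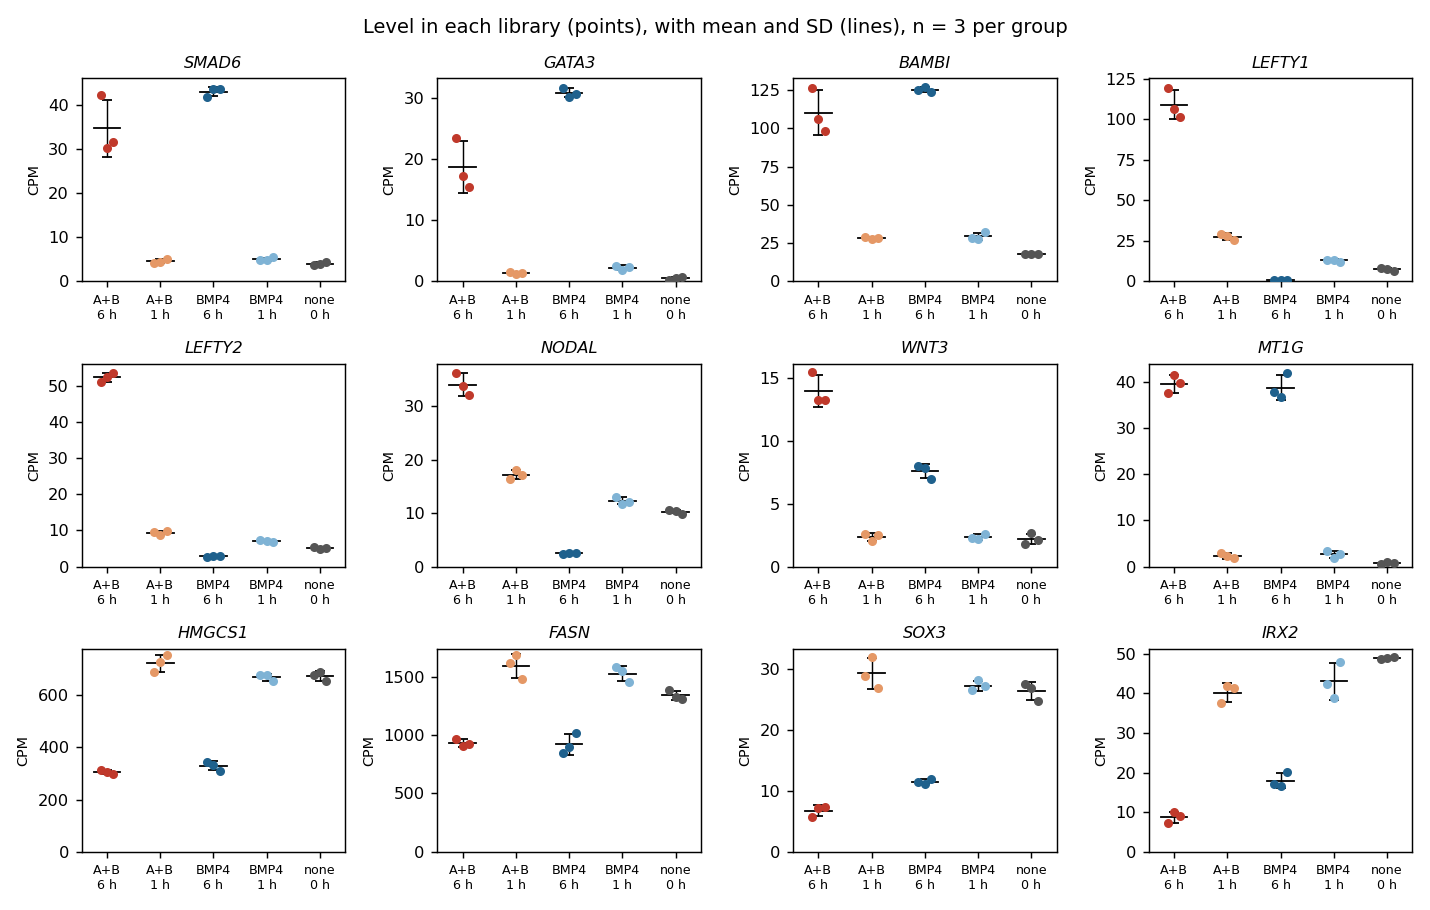
Level in CPM of 12 genes in each library, with the mean and SD of each group of 3; A+B is Activin plus BMP4 and none is the untreated group at 0 h. SMAD6, GATA3, BAMBI, WNT3 and MT1G were high at 6 h in both conditions, whereas LEFTY1, LEFTY2 and NODAL were high at 6 h with Activin plus BMP4 and lower at 6 h than at 1 h with BMP4 alone.

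Genes of the primitive streak, the site where mesoderm and endoderm arise, were at the edge of detection. Of 20 tested, 5 were called higher and 3 lower, and their summed level was 29.3 to 35.7 CPM at 6 h and 14.2 to 16.5 CPM at 1 h. WNT3, the ligand that acts upstream of the streak, made up much of this: it had 15.5, 13.2 and 13.2 CPM at 6 h, against 2.57, 2.01 and 2.48 CPM at 1 h (log2 fold change 2.57 ± 0.13; edgeR adjusted p = 3.78e-19). MIXL1, a homeobox gene of mesendoderm, rose by just under 2-fold and had 3.06, 2.98 and 2.43 CPM at 6 h, against 1.39, 1.64 and 1.28 CPM at 1 h (log2 fold change 0.98 ± 0.19; edgeR adjusted p = 7.16e-05), and it passed 2-fold without scaling factors (1.02), without 6 h replicate 3 (1.07) and without 1 h replicate 2 (1.08). TBXT, brachyury, the defining streak factor, stayed at 0.295, 0.203 and 0.0737 CPM at 6 h and 0.218, 0.164 and 0.0753 CPM at 1 h, a difference that did not pass the test (edgeR adjusted p = 0.764). WNT8A, another streak ligand, had 25 counts over the 6 h libraries and 1 count over the 1 h libraries, a ratio of 22.1 with a 95% counting interval of 3.61 to 906.0. FOXA2, a factor of endoderm and the anterior streak, had 2 counts at 6 h and 26 counts at 1 h (ratio 0.0679, interval 0.00781 to 0.271).

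Targets of WNT signalling moved in both directions: of 18 tested, 2 were called higher and 2 lower, and the median log2 fold change was 0.15. NOTUM, a secreted enzyme that inactivates WNT ligands, had 445 counts over the 6 h libraries and 3 over the 1 h libraries, a ratio of 131 with a 95% counting interval of 44.5 to 638, and its 6 h libraries held 6.64, 4.68 and 4.68 CPM. FZD7, a WNT receptor abundant in stem cells, fell to 134, 149 and 157 CPM at 6 h, against 367, 379.6 and 359.9 CPM at 1 h (log2 fold change -1.33 ± 0.08; edgeR adjusted p = 9.4e-18). AXIN2, the usual marker of WNT signalling, fell by less than 2-fold, to 12.9, 15.9 and 15.9 CPM at 6 h, against 27.4, 27.3 and 26.1 CPM at 1 h (log2 fold change -0.86 ± 0.08). SP5, another WNT target, had a call that leaving out 1 h replicate 3, 6 h replicate 1 or 6 h replicate 2 ended.

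The metallothioneins, small cysteine-rich proteins that bind zinc and copper, rose, except for 1 member. They were picked out after their values were seen, so their count is a description. Of 7 tested MT1 and MT2 genes 6 were called higher, with a median log2 fold change of 2.41. MT1G had 37.5, 41.4 and 39.7 CPM at 6 h, against 2.96, 2.21 and 1.81 CPM at 1 h and 0.788 CPM on average in untreated cells (6 h against 1 h, log2 fold change 4.10 ± 0.15; edgeR adjusted p = 6.03e-24). MT1X had 51.2, 55.6 and 57.4 CPM at 6 h, against 10.1, 10.4 and 10.5 CPM at 1 h (log2 fold change 2.41 ± 0.09; edgeR adjusted p = 1.1e-24). MT2A had 20.6, 23.7 and 22.9 CPM at 6 h, against 7.84, 8.27 and 7.34 CPM at 1 h (log2 fold change 1.52 ± 0.10). The times did not overlap for any of the 3. MT1E and MT1H rose by 3.74 and 3.89 on the log2 scale and MT1F by 2.07, and MT1M, near 1 CPM at both times, did not pass the test (edgeR adjusted p = 0.873). These genes are close copies of each other, and how reads that fit several of them were shared is not stated. SLC30A1, a zinc exporter that responds to the same factor, rose by much less, to 87.1, 90.4 and 82.2 CPM at 6 h, against 66.9, 70.3 and 73.3 CPM at 1 h (log2 fold change 0.30 ± 0.08; edgeR adjusted p = 0.00331). MTF1, the zinc-sensing transcription factor that binds metal response elements, rose to 24.4, 25.9 and 24.4 CPM at 6 h, against 19.03, 17.9 and 17.9 CPM at 1 h (log2 fold change 0.45 ± 0.07).

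The promoters of the 3 metallothioneins with a RefSeq window are shown because these genes moved together. Each line gives the 250 bases before the RefSeq start in GRCh38.p14, plus strand, 5′ to 3′, at chr16:56682220-56682469 for MT1X, chr16:56669564-56669813 for MT1H and chr16:56608334-56608583 for MT2A. Capitals mark matches on either strand to the metal response element core, TGCACNC or TGCGCNC.
MT1X: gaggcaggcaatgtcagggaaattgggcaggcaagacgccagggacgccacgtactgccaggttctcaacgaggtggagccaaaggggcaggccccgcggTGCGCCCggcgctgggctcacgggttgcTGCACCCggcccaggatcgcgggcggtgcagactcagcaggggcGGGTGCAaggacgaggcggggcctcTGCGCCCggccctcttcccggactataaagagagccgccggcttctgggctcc
MT1H: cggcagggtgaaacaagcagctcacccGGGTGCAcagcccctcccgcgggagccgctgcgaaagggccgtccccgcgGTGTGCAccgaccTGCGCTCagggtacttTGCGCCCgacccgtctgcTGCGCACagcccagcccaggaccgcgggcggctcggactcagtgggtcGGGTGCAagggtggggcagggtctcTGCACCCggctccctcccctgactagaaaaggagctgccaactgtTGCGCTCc
MT2A: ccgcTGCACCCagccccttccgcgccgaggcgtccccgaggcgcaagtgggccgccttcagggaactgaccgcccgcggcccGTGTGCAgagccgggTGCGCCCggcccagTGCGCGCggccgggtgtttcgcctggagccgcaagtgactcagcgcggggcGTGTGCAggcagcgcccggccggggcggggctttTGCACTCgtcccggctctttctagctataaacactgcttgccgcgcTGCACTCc
MT1X held 4 matches, MT1H held 8 and MT2A held 7. At least 1 match stood in 24.8% of the 35116 windows of all genes and at least 4 in 0.37% of them. Whether MTF1 was bound there was not measured.

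Heat shock genes moved in the same direction by less. Of 17 genes of the heat shock and unfolded protein responses, 2 were called higher and 0 lower, while 12 rose and 1 fell at any fold, with a median log2 fold change of 0.28. HSPA1A, an inducible HSP70 chaperone, had 125, 139 and 141 CPM at 6 h, against 49.1, 48.4 and 47.3 CPM at 1 h (log2 fold change 1.48 ± 0.06; edgeR adjusted p = 1.71e-23). HSPA1B had 134, 132 and 153 CPM at 6 h, against 57.4, 61.05 and 54.03 CPM at 1 h (log2 fold change 1.28 ± 0.06), and since both genes encode nearly the same sequence their reads may be split between them.

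Genes of cholesterol and fatty acid synthesis mostly fell. Of 37 tested, 32 fell and 1 rose at any fold, against 18.1% and 19.0% of all genes, and 5 were called lower and 1 higher. The median log2 fold change was -0.56. HMGCS1, an early enzyme of cholesterol synthesis, had 312, 306 and 296 CPM at 6 h, against 687, 726 and 753 CPM at 1 h (log2 fold change -1.24 ± 0.07; edgeR adjusted p = 2.38e-18). MVD, which makes the isoprene units of the same pathway, had 41.1, 38.2 and 39.05 CPM at 6 h, against 89.1, 93.6 and 81.6 CPM at 1 h (log2 fold change -1.16 ± 0.07; edgeR adjusted p = 2.84e-17). SQLE, the enzyme that oxidises squalene, fell by less than 2-fold, to 157, 154 and 158 CPM at 6 h, against 247, 257 and 253 CPM at 1 h (log2 fold change -0.69 ± 0.05; edgeR adjusted p = 3.29e-14). For these 3 genes the groups did not overlap. INSIG1, which holds back sterol synthesis and is itself a sterol-regulated gene, fell by 0.98 on the log2 scale (edgeR adjusted p = 1.57e-20; -1.02 and so called without 1 h replicate 1), and FASN, the fatty acid synthase, averaged 932 ± 31.2 CPM at 6 h and 1592 ± 103 CPM at 1 h. The single gene that rose was ABCA1, which exports cholesterol from cells: it had 80.2, 86.8 and 84.3 CPM at 6 h, against 39.6, 40.9 and 39.3 CPM at 1 h (log2 fold change 1.07 ± 0.15; edgeR adjusted p = 1.28e-07). DHCR7 and LPIN1 were called lower as well, and DHCR7 lost its call without scaling factors (log2 fold change -0.99).

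Several transcription factors of the early nervous system fell. Of 14 tested neural ectoderm genes 3 were called lower and 0 higher, with a median log2 fold change of -0.48. SOX3, a factor of neural progenitors that stem cells also express, fell to 5.68, 7.12 and 7.33 CPM at 6 h, against 28.9, 32.1 and 26.9 CPM at 1 h (log2 fold change -2.12 ± 0.14; edgeR adjusted p = 7.25e-16). FEZF1, a forebrain factor that shares 23.4% of its exon bases with FEZF1-AS1 on the other strand, had 4.17, 6.40 and 7.07 CPM at 6 h, against 15.6, 17.4 and 17.4 CPM at 1 h (log2 fold change -1.51 ± 0.21; edgeR adjusted p = 1.03e-07). The third called member, ZIC1, was below 1 CPM at both times, and its call ended without 6 h replicate 3 or 1 h replicate 3. IRX2, an Iroquois homeobox gene, came first among the falling genes with at least 10 CPM by the rule for named genes: it had 7.23, 9.96 and 9.03 CPM at 6 h, against 37.5, 41.9 and 41.3 CPM at 1 h (log2 fold change -2.20 ± 0.15; edgeR adjusted p = 1.33e-15). None of its 6 h libraries came near the 1 h libraries. HES3, a repressor of the HES family, had 2.36, 3.08 and 2.76 CPM at 6 h, against 11.02, 10.6 and 9.86 CPM at 1 h (log2 fold change -1.93 ± 0.21). RORB, a nuclear receptor, and LHX4, a LIM homeobox factor, fell by 1.66 and 1.71 on the log2 scale, though LHX4 shares 30.8% of its exon bases with ACBD6 on the other strand. LRP2, the endocytic receptor megalin, had 5.39, 4.84 and 4.53 CPM at 6 h, against 13.8, 16.3 and 15.8 CPM at 1 h (log2 fold change -1.64 ± 0.16).

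The pluripotency genes moved little. Of 26 tested, 0 were called higher and 1 lower, 3 rose and 11 fell at any fold, and their summed level was 11600.0 to 12000.0 CPM at 6 h and about 12500.0 CPM in each 1 h library. NANOG, which responds to Activin and NODAL, rose by less than 2-fold, to 270.4, 259 and 260.2 CPM at 6 h, against 175, 175 and 185 CPM at 1 h (log2 fold change 0.56 ± 0.04; edgeR adjusted p = 4.24e-16). OTX2, a factor of primed pluripotency and of the anterior neural plate, fell to 32.6, 43.4 and 46.9 CPM at 6 h, against 69.2, 70.5 and 70.97 CPM at 1 h (log2 fold change -0.78 ± 0.11). POU5F1 and SOX2 had log2 fold changes of 0.06 ± 0.05 and -0.06 ± 0.08, neither past the test (edgeR adjusted p = 0.365 and 0.588).

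**Figure D3:**
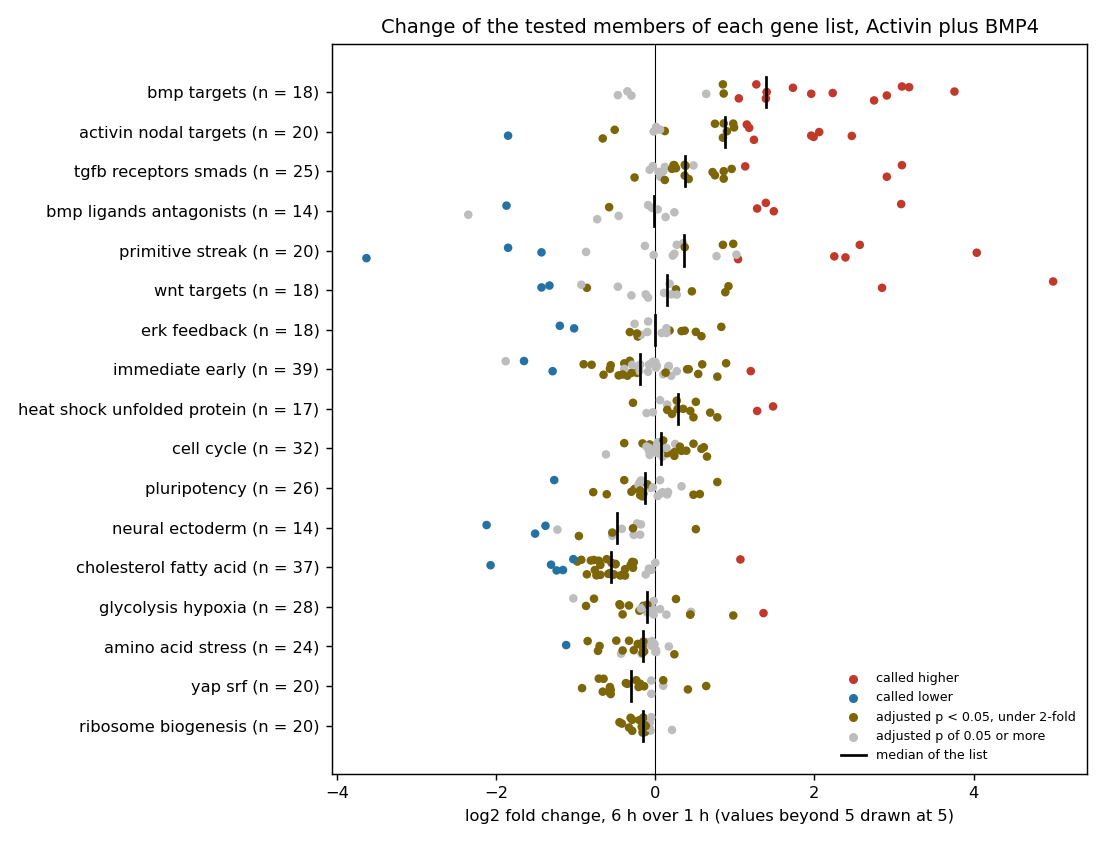
Log2 fold change, 6 h over 1 h in Activin plus BMP4, of the tested members of 17 gene lists, 1 point per gene, with the median of each list as a black bar. Members of the BMP target list lie mostly to the right of 0 (median 1.39) and those of the cholesterol and fatty acid list to the left (median -0.56), with most of that list under 2-fold.

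Some genes that were already up at 1 h fell again by 6 h, and fewer rose further. To name them without using the same libraries, the 1 h cells in BMP4 alone were set against untreated cells, which called 238 genes of 19603 (1.21%), 215 higher (1.1%) and 23 lower (0.117%). Between 1 h and 6 h in Activin plus BMP4, 20 of the 215 were called higher (9.3%) and 30 lower (14%), with a median log2 fold change of -0.25, against 2.98%, 2.12% and 0.00 over all genes. The list rests partly on 1 library: without BMP4 1 h replicate 1 it held 131 genes, of which 17 were called higher (13%) and 21 lower (16%). ARRDC3, an arrestin-like regulator of receptor traffic, averaged 9.01, 71.6, 37.9, 23.1 and 20.4 CPM at 0, 1, 6, 12 and 24 h of Activin plus BMP4. Its fall from 1 h to 6 h was under 2-fold and so not called (log2 fold change -0.92; edgeR adjusted p = 6.27e-15). TXNIP, a thioredoxin inhibitor of the same protein family, had 6.75, 9.83 and 9.14 CPM at 6 h, against 28.7, 27.4 and 28.1 CPM at 1 h (log2 fold change -1.71 ± 0.37; edgeR adjusted p = 0.000214). GADD45G, a growth arrest and DNA damage gene, had 1.51, 1.63 and 1.58 CPM at 6 h, against 6.40, 7.62 and 6.96 CPM at 1 h (log2 fold change -2.15 ± 0.17; edgeR adjusted p = 1.9e-13). In each of these the 6 h libraries lay below the 1 h libraries. The levels of TXNIP and GADD45G in untreated cells are not given here. ARRDC3, GADD45G and DHRS2 were chosen after their values were seen. DHRS2, a short-chain dehydrogenase on the same list, went on rising, to 33.2, 29.5 and 27.3 CPM at 6 h, against 6.05, 5.69 and 6.10 CPM at 1 h (log2 fold change 2.33 ± 0.10). Of 39 tested immediate-early genes, which answer growth factors within minutes, 1 was called higher and 2 lower. The lower calls, NR4A2 and NR4A3, were below 1 CPM and unstable. The number of lower calls on the whole list ranged over 0 to 3 when single libraries were left out (1 without 6 h replicate 2 and 0 without 1 h replicate 2). That number was 1 with DESeq2 and 0 with no filter, the stricter filter or only the compared groups in the fit. FOS averaged 9.14 ± 0.577 CPM at 6 h and 10.4 ± 1.02 CPM at 1 h, with 8.84 CPM in untreated cells.

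Among the remaining named genes, COL9A2, a cartilage collagen chain, and CRIP2, a LIM-domain protein, rose by 2.69 and 2.72 on the log2 scale. PCAT14, a long non-coding RNA, had 40.1, 33.4 and 28.5 CPM at 6 h, against 1.09, 1.64 and 1.28 CPM at 1 h (log2 fold change 4.66 ± 0.34). GCNT4, a glycosyltransferase, fell to 17.7, 16.3 and 12.5 CPM at 6 h, against 65.5, 69.5 and 70.1 CPM at 1 h (log2 fold change -2.14 ± 0.12; edgeR adjusted p = 2.03e-18), and DGKK, a diacylglycerol kinase, had 9.70, 8.61 and 7.99 CPM at 6 h, against 27.2, 30.8 and 29.9 CPM at 1 h (log2 fold change -1.74 ± 0.10). CCDC141 and ADCY8, an adenylate cyclase, fell by 1.86 and 1.83 on that scale. Calls of RGPD5, KBTBD11-OT1, RN7SL1, RN7SL2 and H4C15 are uncertain, since near-identical copies or overlapping genes may share their reads, which was not tested. The calls of RN7SL1 and RN7SL2 ended when any 6 h library or 1 h replicate 3 was left out, and that of KBTBD11-OT1 without 1 h replicate 2. Of 20 ribosome biogenesis genes 15 fell and 0 rose at any fold, none by 2-fold. Of 20 targets of YAP and SRF, which respond to cell tension, 14 fell and 3 rose, likewise with 0 called.

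The same step in BMP4 alone shares no library with these 6 and showed much of the same change. There 983 genes were called (5.01%), 531 higher (2.71%) and 452 lower (2.31%). Of the genes called higher, 301 were called in both conditions, 51.5% of the Activin plus BMP4 calls and 56.7% of the BMP4 calls; of the genes called lower, 192 were shared, 46.2% and 42.5%. Across the 15270 genes with at least 1 CPM in 1 of the 4 groups, the changes correlated with Pearson's r of 0.628 and Spearman's rho of 0.768, a description across genes, which are not independent replicates. In BMP4 alone 16 of the 18 BMP targets were called higher, with a median of 1.66. GATA3 had a log2 fold change of 3.77 ± 0.18 there and MT1G one of 3.87 ± 0.15, and the differences between conditions, -0.01 for GATA3 and 0.23 for MT1G, did not pass the test (edgeR adjusted p = 1 and 0.781). The cholesterol and fatty acid list fell there too, 32 of 37 at any fold against 18.9% of all genes, with a median of -0.46.

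The difference between the conditions' changes was called for 58 genes (0.296%), 44 higher with Activin plus BMP4 (0.224%) and 14 lower (0.0714%). Leaving out Activin plus BMP4 1 h replicate 1 or BMP4 6 h replicate 2 left 9 of the lower side. Of the 1001 genes called with Activin plus BMP4, 25 had a called difference. Of the 20 Activin and NODAL targets, a list drawn up with earlier results of these data known, 9 were called higher and 0 lower. LEFTY1 led: in BMP4 alone it had 0.734, 0.916 and 0.900 CPM at 6 h, against 13.5, 13.3 and 12.2 CPM at 1 h, so it fell there by 3.93 on the log2 scale, and the changes differed by 5.92 ± 0.25 (edgeR adjusted p = 2.18e-21). LEFTY2 had 2.60, 2.82 and 2.98 CPM at 6 h, against 7.38, 7.01 and 6.85 CPM at 1 h in BMP4 alone (difference of changes 3.81 ± 0.26; edgeR adjusted p = 3.35e-14). CER1 had 0.967, 1.69 and 1.28 CPM at 6 h, against 4.86, 5.54 and 4.91 CPM at 1 h in BMP4 alone (difference 3.93 ± 0.24; edgeR adjusted p = 1.07e-15). For these 3 the BMP4 libraries at 6 h lay below those at 1 h, the reverse of the order with Activin plus BMP4. NODAL fell in BMP4 alone to 2.37, 2.60 and 2.49 CPM at 6 h, against 13.1, 11.7 and 12.1 CPM at 1 h (difference 3.29 ± 0.21; edgeR adjusted p = 4.66e-15). It too rose with Activin plus BMP4.

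LEFTY1, LEFTY2 and CER1 were called higher with Activin plus BMP4 and lower with BMP4 alone. SMAD3 and PMEPA1 were of another kind: in BMP4 alone SMAD3 had 15.1, 12.97 and 13.8 CPM at 6 h, against 14.96, 13.98 and 15.02 CPM at 1 h, a log2 change of -0.07 ± 0.08 that did not pass the test (edgeR adjusted p = 0.499), and the difference between conditions was 1.20 ± 0.10 (edgeR adjusted p = 3.01e-11). PMEPA1 likewise had 24.7, 25.6 and 24.3 CPM at 6 h, against 25.4, 25.4 and 25.6 CPM at 1 h in BMP4 alone (difference 1.22 ± 0.12; edgeR adjusted p = 7.8e-10). FGF8, a streak ligand, was among the genes called for the difference without a call of their own with Activin plus BMP4: it had 2.77, 2.51 and 2.28 CPM at 6 h, against 1.87, 2.42 and 2.11 CPM at 1 h with Activin plus BMP4, and 0.167, 0.366 and 0.346 CPM at 6 h, against 1.22, 1.60 and 1.53 CPM at 1 h in BMP4 alone (difference 2.53 ± 0.32; edgeR adjusted p = 6.05e-07). The change of FGF8 with Activin plus BMP4 did not pass the test (edgeR adjusted p = 0.297), and it fell in BMP4 alone. NANOG differed by 0.51 ± 0.05, under 2-fold (edgeR adjusted p = 3.73e-09). On the other side, IGFBP3, an IGF-binding protein, had 9.89, 10.2 and 9.32 CPM at 6 h, against 11.5, 11.8 and 12.2 CPM at 1 h with Activin plus BMP4, and 26.6, 30.04 and 27.2 CPM at 6 h, against 12.5, 11.2 and 13.1 CPM at 1 h in BMP4 alone, where it rose (difference -1.45 ± 0.16; edgeR adjusted p = 2.38e-08). IRX2 fell further with Activin plus BMP4 than with BMP4 alone (difference -0.94 ± 0.20; edgeR adjusted p = 0.00565), again under 2-fold. Mitochondrial transcripts moved with time in BMP4 alone, where the protein-coding ones took 1.618% ± 0.238 of counts at 6 h and 2.972% ± 0.230 at 1 h (SD, n = 3 each), and their part in these differences was not tested.

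**Figure D4:**
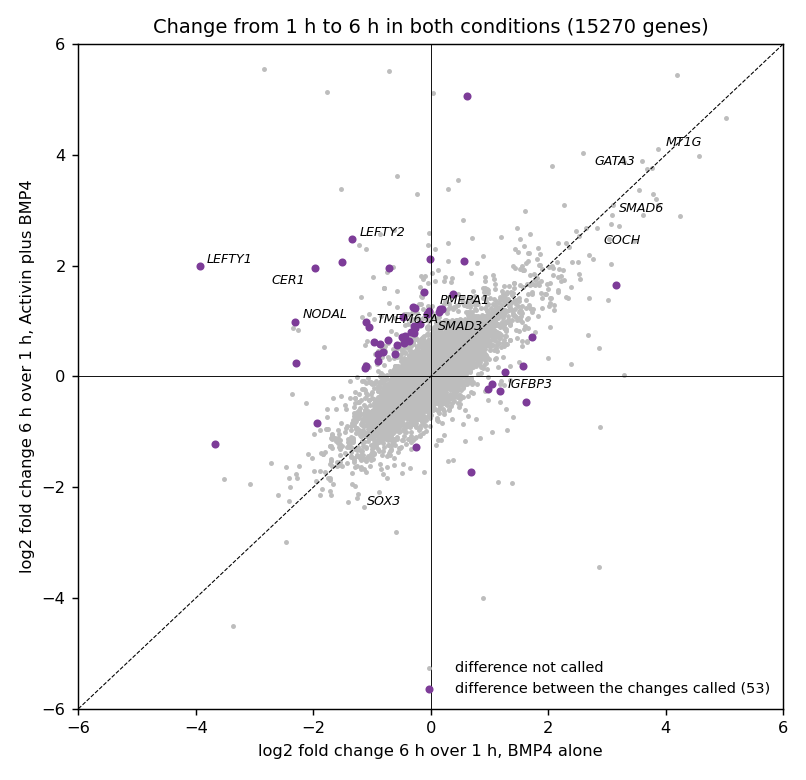
Log2 fold change, 6 h over 1 h, with Activin plus BMP4 (vertical) and BMP4 alone (horizontal) for the 15270 genes with at least 1 CPM in a group; the dashed line marks equal change. Purple points are genes whose changes differed by the test, and LEFTY1, LEFTY2, CER1 and NODAL lie in the upper left, rising with Activin plus BMP4 and falling with BMP4 alone.

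TMEM63A, a membrane channel gene, lies downstream of LEFTY1 on the same strand of chromosome 1 and is on the list of Activin and NODAL targets. It had 89.98, 81.04 and 79.1 CPM at 6 h, against 46.7, 45.9 and 41.8 CPM at 1 h with Activin plus BMP4, and 21.4, 22.8 and 22.1 CPM at 6 h, against 48.1, 48.00 and 41.6 CPM at 1 h with BMP4 alone. The changes differed by 1.95 ± 0.11 (edgeR adjusted p = 3.55e-17), and every 6 h library lay above the 1 h libraries with Activin plus BMP4 and below them with BMP4 alone.

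The later times show how long these levels lasted. SMAD6 averaged 4.03, 4.60, 34.8, 39.2 and 24.9 CPM at 0, 1, 6, 12 and 24 h of Activin plus BMP4, and GATA3 0.559, 1.38, 18.7, 26.9 and 29.2 CPM. LEFTY1 averaged 7.42, 27.6, 109, 117 and 27.7 CPM at the same times, high at 6 h and 12 h and lower at 24 h, while NODAL averaged 10.3, 17.2, 34.04, 46.2 and 148 CPM. MT1G averaged 0.788, 2.33, 39.5, 23.3 and 10.97 CPM and so peaked at 6 h. HMGCS1 averaged 673, 722, 305, 408 and 672 CPM, lowest at 6 h, and SOX3 averaged 26.5, 29.3, 6.71, 7.33 and 7.505 CPM, staying low. TBXT averaged 0.178, 0.152, 0.191, 0.481 and 43.04 CPM, its highest of these times being 24 h. These later values were not tested here.

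**Figure D5:**
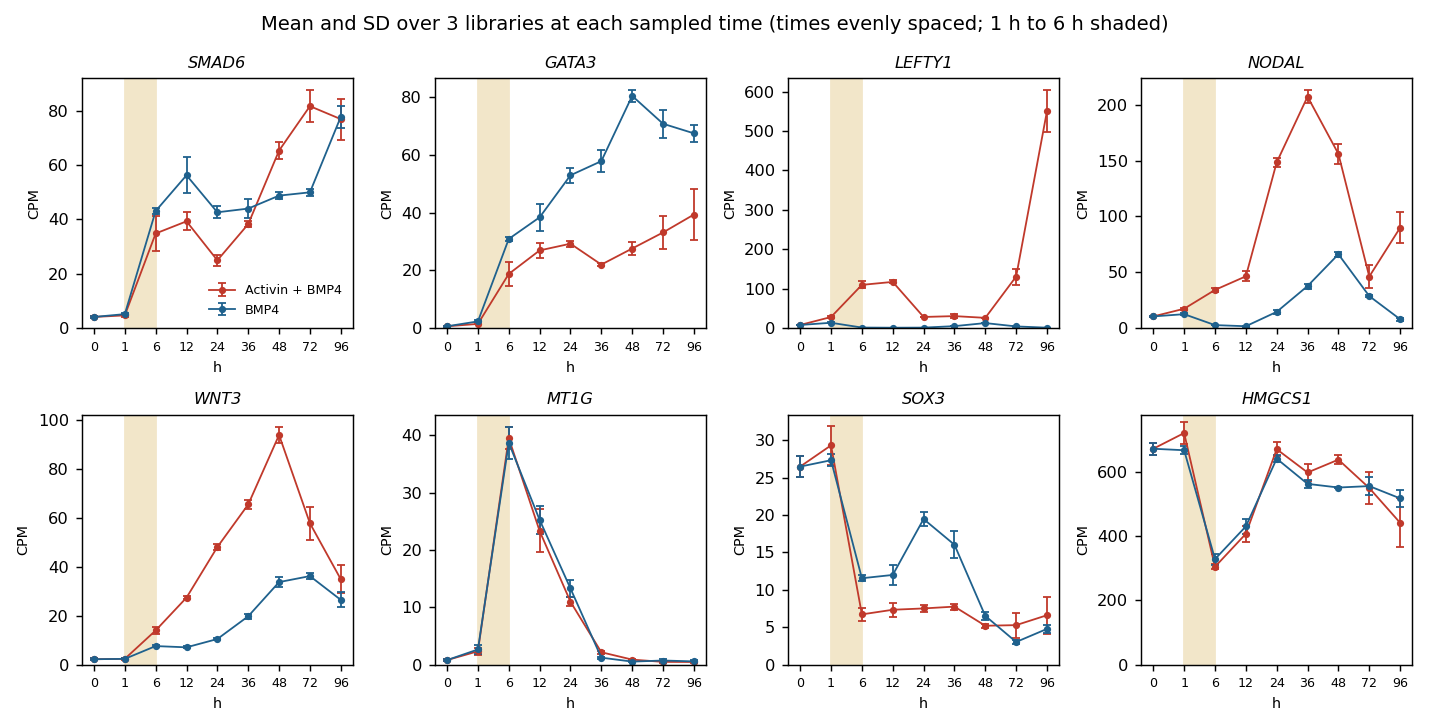
Mean level in CPM, with SD over 3 libraries, of 8 genes at 0 to 96 h, the times drawn evenly spaced and the step of 1 h to 6 h shaded; red is Activin plus BMP4 and blue BMP4 alone. MT1G peaks at 6 h and HMGCS1 is lowest there in both conditions, whereas WNT3 and NODAL with Activin plus BMP4 go on rising to 48 h and 36 h.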

How the data were processed

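The authors deposited 1 table of whole-number counts per gene for the 51 libraries, whose total counts in the 6 libraries described here were 23440096 to 29260296. Per the labels' protocols, 400 ng of total RNA entered KAPA RNA HyperPrep libraries. The submitters' processing notes name cutadapt 1.5, STAR 2.5.2a, RSEM 1.3.0 and GRCh38; their roles, the annotation release and the strand setting are not given in the sources used here, nor whether the counts are reads or rounded estimates, so overlapping genes and close copies are uncertain. Intervals cover counting error only.

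Counts were fitted with edgeR 4.0.16 (R 4.3.3; quasi-likelihood F test, TMM scaling, filterByExpr with a minimum count of 10, 1 mean per group, all 51 libraries), giving 19603 genes with 99.95% of counts. The difference between conditions was a contrast in the same fit. The 95% intervals of ratios of low counts are exact. The fit was tested on simulated data: of genes changed 3-fold and 8-fold, 100% were called, and 0.01% of unchanged genes. Of genes changed 1.5-fold, which is under the fold limit, 0% were called. Only well-counted genes were changed and all genes were given the same spread. These shares therefore do not cover genes with few counts or with uneven replicates. Alternatives were RLE and no scaling, no and a stricter filter, DESeq2 1.42.0, only the groups compared, a replicate block, no fold limit and leaving out each library. Libraries were grouped by their labels, and no pair of replicates was alike within sampling noise. Named genes are the 15 highest and 15 lowest called genes with at least 10 CPM, non-overlapping libraries and a gene-type symbol, the 6 highest and lowest for the difference, and members of the gene lists. The members, lists and families were chosen with earlier results of these data known. Promoter windows are those of RefSeq, GRCh38.p14, cut to 250 bases before the start. Some genes and their values are not reported here.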

Additional observations from a re-analysis of the deposited data

Results flagged for a closer look

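The change between 1 h and 6 h differed between Activin plus BMP4 and BMP4 alone for 58 genes by edgeR's test of the difference. The values below are differences of log2 changes, Activin plus BMP4 minus BMP4 alone. Among NODAL pathway genes they were 5.92 for LEFTY1, 3.93 for CER1, 3.81 for LEFTY2 and 3.29 for NODAL. Smaller positive differences were 1.22 for PMEPA1, 1.20 for SMAD3, 1.51 for MYORG and 2.08 for MIXL1. FGF8 had 2.53, the WNT receptor gene FZD5 had 1.18 and the immediate-early gene EGR1 had 1.07. TMEM63A, next to LEFTY1, had 1.95. EBF2, at very low counts, had 4.44, MMP9 had 1.10 and GNA14 had 1.03. BCL2L2-PABPN1 had 2.67, but it is a readthrough gene that shares 52.5% of its exon bases with BCL2L2 and 42.2% with PABPN1, and leaving out 1 library ended its call in 8 of 12 cases. Negative differences were -1.45 for IGFBP3, -2.42 for the inhibin subunit gene INHBB, -2.09 for TBX3 and -1.52 for KCNK13.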

How the results depend on the processing

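Most named genes kept their call, and no called gene among them changed direction under the settings run. TBXT, not called, ranged over -0.07 to 0.71 on the log2 scale when single libraries were left out. With no fold limit, 7265 genes passed in Activin plus BMP4 (3721 higher, 3544 lower), 7456 in BMP4 alone (3749 and 3707) and 342 in the difference (234 and 108). The stricter filter tested fewer genes and called 587 (376 and 211) with Activin plus BMP4, 550 (325 and 225) in BMP4 alone, 82 at 1 h and 629 at 6 h of Activin plus BMP4 against untreated cells, and 112 (100 higher) at 1 h of BMP4. With no filter the difference had 281 calls (198 and 83), and 294 and 401 genes were called at 1 h of Activin plus BMP4 and of BMP4 against untreated cells. With only the compared groups in the fit the difference had 101 calls (79 and 22); the cause was not tested. Leaving out single libraries gave 906 to 960 calls with Activin plus BMP4, and 46 to 64 for the difference (37 to 50 higher, 9 to 19 lower). The 1 h BMP4 calls ranged over 142 to 240 (131 to 217 higher), lowest without BMP4 1 h replicate 1. With the replicate block, 1001 genes were called with Activin plus BMP4 (584 and 417), 979 in BMP4 alone and 58 for the difference. The replicate numbers did not pair these libraries, whose same-numbered deviations correlated at -0.013, -0.017 and -0.065. Calls lost when single libraries were left out included GSC, SP5, ZIC1, DKK1 and WNT9B, all under 1 CPM, and also RN7SL1 and RN7SL2, each in 4 of 6 cases; the cause was not tested.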

Other observations

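Many markers of later lineages were low, but not all. Of 24 amnion and trophoblast genes 5 had at least 10 CPM at 6 h, and 3 had that level at 1 h already. The keratin genes KRT8 and KRT18, both on that list, averaged 212 and 233 CPM over both times. The summed level of 18 mesoderm genes was 109 to 127 CPM at 6 h, against 196 to 207 CPM at 1 h. Of these 18, 3 were called higher and 1 lower. KDR, a member of that list, fell by less than 2-fold (log2 fold change -0.8, edgeR adjusted p = 2.12e-12). Of 20 tested amnion and trophoblast genes 4 were called higher and 1 lower with Activin plus BMP4, against 2.98% and 2.12% of all genes. With BMP4 alone 8 were called higher and 0 lower, against 2.71% and 2.31%. The test of the difference between conditions called 0 of them higher and 1 lower, so these counts do not by themselves show that the conditions differ. DLX3, the lower call with Activin plus BMP4, lost it in 3 of 6 cases when single libraries were left out. GRHL3, a surface-ectoderm factor, had 8.63, 6.81 and 7.04 CPM at 6 h, against 2.70, 2.87 and 2.82 CPM at 1 h with Activin plus BMP4 (log2 fold change 1.42 ± 0.14; edgeR adjusted p = 9.16e-11). Of 15 definitive endoderm genes 3 were called higher and 2 lower, and HHEX, an early endoderm and blood factor, averaged 1.93 ± 0.744 CPM at 6 h and 0.760 ± 0.329 CPM at 1 h (SD, n = 3 each). GATA4, GATA5 and GATA6 are cardiac and endoderm factors, and with GATA2 and GATA3, 4 of 5 tested GATA genes were called higher, a family picked out after its values were seen. GATA5 averaged 0.632 ± 0.259 CPM at 6 h and 0.0823 ± 0.0452 CPM at 1 h, both very low levels.

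FGF and ERK feedback genes changed in a few members. FGFR3, an FGF receptor, had 115, 90.4 and 85.3 CPM at 6 h, against 26.4, 24.98 and 24.3 CPM at 1 h (log2 fold change 1.94 ± 0.08; edgeR adjusted p = 8.31e-22). DUSP4, an ERK phosphatase, fell to 13.1, 12.9 and 12.3 CPM at 6 h, against 29.2, 29.7 and 29.4 CPM at 1 h (log2 fold change -1.20 ± 0.07; edgeR adjusted p = 1.37e-17). The Notch ligand DLL1 averaged 0.977 ± 0.501 CPM at 6 h and 2.58 ± 0.235 CPM at 1 h (log2 fold change -1.40 ± 0.30; edgeR adjusted p = 0.000231). Of 492 genes with a ZNF symbol, which encode zinc finger proteins, 214 rose and 34 fell at any fold, against 19.0% and 18.1% of all genes. By 2-fold 8 were called higher and 1 lower, against 2.98% and 2.12% of all genes. The median log2 fold change was 0.18, and the family was chosen with earlier results of these data known. Of 32 cell cycle genes 12 rose and 3 fell at any fold, none by 2-fold. Of 24 genes of the amino acid stress response 1 rose and 13 fell at any fold, with TRIB3 called lower. The shares of all genes at any fold are again 19.0% and 18.1%.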
